A study of Mus musculus with 4 samples.

Results

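Immunoglobulin gene segments are the germline pieces from which antibody chains are assembled, and their RNA was measured here in smooth muscle cells sorted from mouse lungs. The members were all rows of the table of normalized counts whose Ensembl biotype was an immunoglobulin variable (V), joining (J), diversity (D) or constant (C) gene. The rule found 177 of 21462 rows, made up of 162 V, 11 C and 4 J segments, while D segments are not analysed here. By locus, 93 belonged to the heavy chain locus Igh on chromosome 12, 77 to the kappa light chain locus Igk on chromosome 6 and 7 to the lambda light chain locus Igl on chromosome 16. All 177 had the same coordinates in the GENCODE M21 annotation of GRCm38, which lists 113 V segments for Igh, 100 for Igk and 3 for Igl, against 84, 75 and 3 in the table.

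The comparison was between 2 libraries from mice with Tet3 inactivated in their smooth muscle and 2 libraries from control animals. Tet3 encodes an enzyme that oxidizes methylated cytosine in DNA. All animals were of the C57BL/6 strain, and each library came from its own animal. The mutants carried floxed Tet3 alleles, a tamoxifen-inducible Cre (ERT2Cre) under the promoter of α-SMA, the smooth muscle actin gene, and a tdTomato reporter at ROSA26 by which the cells were sorted. That promoter is also active in other contractile cells such as myofibroblasts and pericytes. The labels call the control animals WT. By the study's methods such animals lacked the floxed alleles but had the Cre, the reporter or both, and a sort by tdTomato requires the reporter. The methods also describe daily intraperitoneal injections of tamoxifen. The labels give neither this treatment nor the age of either group. Before the sort, blood was flushed from the lungs and cells carrying the leukocyte protein CD45 or the red cell protein Ter-119 were depleted with magnetic beads.

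Antibodies are built from a pair of heavy and a pair of light chains. In a developing B cell, DNA recombination joins 1 V segment to a D and a J segment at Igh, and a V to a J segment at Igk or Igl, and splicing then links the assembled exon to the constant segment. Ighm and Ighd encode the constant parts of IgM and IgD, which naive B cells carry on their surface. Class switching replaces them by an Ighg segment (IgG) or by Igha (IgA, the antibody class of mucosal surfaces), and plasma cells, which secrete antibody, hold by far the most of this RNA.

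Values are normalized counts, that is, read counts which the authors scaled between libraries and rounded to whole numbers. The libraries held an estimated 6.32 M to 7.56 M reads assigned to genes. The 177 segments took 0.0738% of the summed values in control replicate 1, 0.0506% in control replicate 2, 0.0882% in Tet3 mutant replicate 1 and 0.102% in Tet3 mutant replicate 2, and where a pair of values is given for a group below, replicate 1 comes first. The targeted gene Tet3 had 1847 and 1926 normalized counts in the controls and 1534 and 1444 in the mutants, which is -0.34 as a log2 fold change (standard error, SE, 0.10) with an adjusted p of 0.681 by limma. The smooth muscle genes Acta2 and Myh11 were present at 686 to 1032 and 1330 to 2473 normalized counts. CD45 RNA (Ptprc) was present as well, at 2136 and 1364 in the controls and 2674 and 1885 in the mutants.

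Control replicate 2 stood apart. It had 2 normalized counts of Xist, which is transcribed from the inactive X chromosome of females, and 774 of the Y-linked gene Ddx3y, whereas the other libraries had 5214 to 6781 of Xist and 0 of Ddx3y. Its summed value over 16 B cell markers was 937, against 1300 to 1981 elsewhere, and its sum over 10 T cell and natural killer cell markers was 238, against 832 to 913. Of the 16 B cell markers, 14 were lower in it than in both mutants. Ebf1, the largest entry of the B cell sum, was not low in it, at 407 against 314 to 492 elsewhere. The value of each library is therefore printed. Counts of segments whose groups do not overlap, and medians over the segments, are also given without this one. Its part in the results was not tested otherwise.

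The V segments on which the results turn are shown by their last 120 bases, the stretch that ends where a J segment or a D segment is joined. The sequences are from the GENCODE M21 transcripts on GRCm38, all on the minus strand and written 5′ to 3′. Capitals mark the codons for tyrosine, the residue after it and the conserved cysteine that closes the framework before the antigen-contacting loop (letters TANTNNTGN, searched on the coding strand in the last 60 bases). These letters were found in 98.1% of the 162 V segments and in 7.90% of the longest transcripts of 21888 protein-coding genes over the same length. The first set gives Igkv6-13 (chr6:70457501-70457620), which was listed at 0 in both controls, and its relatives Igkv6-14 (chr6:70434952-70435071) and Igkv6-15 (chr6:70406469-70406588).
Igkv6-13: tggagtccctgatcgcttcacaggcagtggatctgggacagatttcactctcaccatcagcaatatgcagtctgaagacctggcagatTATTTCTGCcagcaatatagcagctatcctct
Igkv6-14: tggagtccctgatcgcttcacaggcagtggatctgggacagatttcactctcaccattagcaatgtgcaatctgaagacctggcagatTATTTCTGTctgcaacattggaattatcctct
Igkv6-15: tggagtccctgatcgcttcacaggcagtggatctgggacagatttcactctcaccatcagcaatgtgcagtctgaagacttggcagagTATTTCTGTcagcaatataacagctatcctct
Igkv6-13 was 92.8% identical to Igkv6-14 and 93.7% identical to Igkv6-15 over 347 aligned bases. The second set gives Ighv1-54 (chr12:115193675-115193794), Igkv8-19 (chr6:70340876-70340995) and Igkv10-96 (chr6:68631963-68632082), which are, in that order, a heavy chain segment near 0 in the controls, a kappa segment near 0 in the mutants and the most abundant V segment of the table.
Ighv1-54: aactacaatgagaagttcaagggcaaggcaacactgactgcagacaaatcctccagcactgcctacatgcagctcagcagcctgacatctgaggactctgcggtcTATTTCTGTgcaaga
Igkv8-19: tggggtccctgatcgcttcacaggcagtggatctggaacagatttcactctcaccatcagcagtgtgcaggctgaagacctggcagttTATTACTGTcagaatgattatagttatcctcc
Igkv10-96: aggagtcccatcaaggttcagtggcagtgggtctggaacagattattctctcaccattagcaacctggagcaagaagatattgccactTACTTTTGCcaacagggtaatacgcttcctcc
The third set gives all lambda V segments, Iglv1 (chr16:19085017-19085136), Iglv2 (chr16:19260401-19260520) and Iglv3 (chr16:19241207-19241326).
Iglv1: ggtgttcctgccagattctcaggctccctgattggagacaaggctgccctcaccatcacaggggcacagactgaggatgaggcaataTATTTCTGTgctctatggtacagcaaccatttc
Iglv2: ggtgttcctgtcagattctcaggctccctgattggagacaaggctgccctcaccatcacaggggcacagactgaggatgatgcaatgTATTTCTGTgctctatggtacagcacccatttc
Iglv3: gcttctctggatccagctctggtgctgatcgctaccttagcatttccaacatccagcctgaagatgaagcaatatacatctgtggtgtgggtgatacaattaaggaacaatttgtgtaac
Iglv1 and Iglv2 were 96.7% identical, whereas Iglv3 was 70.7% identical to Iglv1 and 72.6% to Iglv2 and did not hold the searched letters. These letters also require the middle codon to begin with T. In Iglv3 that codon begins with A, and the codons for tyrosine and cysteine stand on either side of it. The J segments are given whole, with the tryptophan-glycine (TGGGGN) or phenylalanine-glycine (TTNGGN) codons in capitals, because their shortness bears on their values below. Ighj1 (chr12:113429781-113429833), Ighj4 (chr12:113428514-113428567) and Iglj3 (chr16:19067041-19067078) are on the minus strand and Igkj5 (chr6:70723886-70723927) is on the plus strand.
Ighj1: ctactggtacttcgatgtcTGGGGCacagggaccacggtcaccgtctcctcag
Ighj4: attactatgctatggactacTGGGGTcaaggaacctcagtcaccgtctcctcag
Igkj5: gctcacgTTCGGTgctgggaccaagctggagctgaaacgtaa
Iglj3: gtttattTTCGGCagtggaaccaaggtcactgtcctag

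Because the authors left out reads that mapped to several places, a value covers only the part of a segment that is found nowhere else. Of the 173 segments long enough to hold a 75-base read, 57 had no 75-base window in common with the annotated transcripts of another gene. The median segment was unique over 93.5% of its windows, and 4 segments were unique over fewer than 50% of them. Among the segments named below, Ighv1-54, Iglv3 and Igkv12-98 were unique over 100% of their windows, Iglv1 over 90.5%, Iglv2 over 89.7% and Igkv6-13 over 87.4%. Igkv4-74 was unique over 73.4% of its windows and shared the rest with other Igkv4 segments. The 11 constant segments were unique over 92.9% to 100% of their windows.

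Among the heavy chain constant segments, those of IgA, IgG1 and IgG2c were above both controls in both mutants, that of IgG2b was lower, and those of IgM, IgD and IgG3 overlapped. None of the 11 constant segments passed an adjusted p of 0.05 in limma, and neither did any of the 106 segments tested, the smallest adjusted p being 0.681. Over all 16659 genes tested the same threshold called 0 genes (0.0%). Without adjustment, 28 of the 106 tested segments were higher and 3 lower at a p under 0.05, against 3.83% and 2.85% of all genes tested. These counts became 15 and 5 when Tet3 mutant replicate 1 was left out and 14 and 8 when the other mutant was. They became 40 and 1 without control replicate 1, and 27 and 5 without control replicate 2. Counted by overlap alone, 6 of 11 constant segments were higher in both mutants and 1 was lower, against 18.1% and 18.3% of all 21462 rows. Without control replicate 2 the counts were 6 and 4, against 30.6% and 34.8% of all rows. In bulk RNA such as this, fewer cells of a type and less RNA per cell cannot be told apart.

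Igha had the largest mean of all segments. It was at 601 and 646 normalized counts in the controls and at 836 and 824 in the Tet3 mutants. The means were 624 ± 31.8 in the controls and 830.0 ± 8.49 in the mutants (SD, n = 2 each), and the log2 fold change was 0.41 (SE 0.11), with an adjusted p of 0.681 by limma. Both mutants were above both controls, and the distance between the groups was several times the spread within either.

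Ighg2c, one of the IgG2 subclass genes, had 27 and 82 normalized counts in the controls and 227 and 265 in the mutants. The lowest mutant value was thus well above the highest control value, with a log2 fold change of 2.35 (SE 0.54; adjusted p 0.681, limma), which was 3.14 without control replicate 2 and 1.57 without control replicate 1. Ighg1, the gene of the subclass that in mice accompanies type 2 immune responses, had 10 and 2 in the controls and 82 and 30 in the mutants, a log2 fold change of 3.14 (SE 0.84; adjusted p 0.681, limma). For Ighg1 it ranged from 2.21 without control replicate 2 to 4.08 without control replicate 1. The groups did not overlap, although the mutants differed from each other more than the controls did in absolute terms.

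Ighg2b was the only constant segment that was lower in both mutants. It had 324 and 318 normalized counts in the controls and 144 and 247 in the mutants, a log2 fold change of -0.76 (SE 0.28; adjusted p 0.681, limma), which was -0.38 without Tet3 mutant replicate 1 and -1.15 without replicate 2. Ighg2b and Ighg2c were 89.1% identical over 1207 aligned bases but were unique over 99.2% and 99.5% of their 75-base windows. Reads were aligned to the C57BL/6 reference genome, and whether all animals carried its Igh and Igk alleles was not tested. A difference in allele and a difference in RNA thus cannot be told apart for single segments of these loci. The sum of the 4 Ighg segments therefore hid opposite differences, and their combined share of the heavy chain constant values was 24.7% and 28.3% in the controls and 26.6% and 27.0% in the mutants. Per kilobase of exon this share was 21.8% and 28.7% in the controls and 30.1% and 31.3% in the mutants. The groups thus overlapped for whole-gene values but not per kilobase.

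Ighm, the segment that every B cell uses first, had 858 and 433 normalized counts in the controls and 634 and 674 in the mutants, so both mutant values lay between the controls. Ighd, which naive B cells express from the same transcript as Ighm by splicing, had 117 and 29 in the controls and 110 and 54 in the mutants. Ighg3 had 156 and 36 in the controls and 119 and 33 in the mutants. For these 3 segments replicate 1 was the higher library of each control pair, and the groups overlapped, with log2 fold changes of 0.10 (SE 0.33) for Ighm, 0.39 (SE 0.74) for Ighd and -0.25 (SE 0.90) for Ighg3. The constant segment of IgE, Ighe, is not analysed here.

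Of the light chain constant segments, Iglc1 showed the clearest separation. Iglc1 had 48 and 45 normalized counts in the controls and 125 and 127 in the mutants, means of 46.5 ± 2.12 and 126 ± 1.41 (SD, n = 2 each). The difference was far larger than the spread between replicates, and the log2 fold change was 1.42 (SE 0.23; adjusted p 0.681, limma). Iglc2 had 47 and 22 in the controls and 47 and 68 in the mutants, so control replicate 1 equalled Tet3 mutant replicate 1. Iglc3, the third lambda constant segment, had 11 and 8 in the controls and 14 in each mutant. Iglc2 and Iglc3 were 95.3% identical, and their exons overlap those of Iglj2 and 2010309G21Rik, in that order, so their values are uncertain.

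Igkc, the single kappa constant segment, had 301 and 306 normalized counts in the controls and 366 and 339 in the mutants. The groups did not overlap, and the log2 fold change was small at 0.21 (SE 0.13; adjusted p 0.701, limma). Per kilobase (kb) of exon, Igkc was the highest of the 11 constant segments, with a mean of 617 normalized counts per kb, ahead of Ighm at 345 and Igha at 272.

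**Figure D1:**
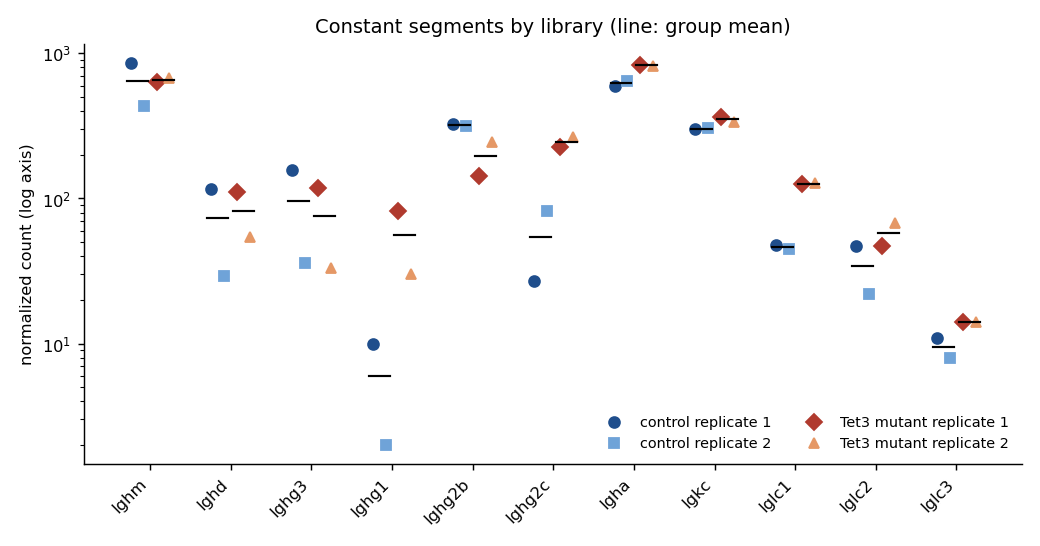
Normalized counts of the 11 constant segments (log axis) in the 2 control and 2 Tet3 mutant libraries, each symbol 1 library and each line a group mean. Ighg2c, Ighg1 and Iglc1 have both mutants well above both controls, Ighg2b has both below, and Ighm, Ighd and Ighg3 overlap.

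As a share of the summed heavy chain constant values, Ighm was the largest class in control replicate 1 at 41.0%. By these whole-gene values Igha was the largest in the other libraries, but not per kb of exon. Igha took 28.7% and 41.8% in the controls and 38.8% and 38.7% in the mutants. Ighm took 41.0% and 28.0% in the controls and 29.5% and 31.7% in the mutants. Per kb of exon, Ighm took 47.9% and 33.6% in the controls and 33.2% and 35.3% in the mutants. Igha took 23.7% and 35.5% per kb in the controls and 31.0% and 30.5% in the mutants. By that measure Igha exceeded Ighm only in control replicate 2. The shares of these major classes therefore overlapped between groups by either measure. Without control replicate 1 the order of the groups reversed for whole-gene values, with Igha lower in the mutants by 2.99 percentage points and Ighm higher by 2.57.

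Ighg2c and Ighg2b each differed in share without overlap, in opposite directions, whereas Ighg3 overlapped at 7.45% and 2.33% in the controls and 5.53% and 1.55% in the mutants. Ighg2c took 1.29% and 5.30% of the heavy chain constant values in the controls and 10.5% and 12.5% in the mutants. Ighg2b took 15.5% and 20.6% in the controls and 6.69% and 11.6% in the mutants. Ighg2b thus exceeded Ighg2c in both controls, whereas Ighg2c was the higher of the pair in both mutants. These shares rest on whole-gene values, and per kb of exon Ighg2c took 2.15% and 9.06% in the controls and 16.9% and 19.8% in the mutants.

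Lambda is the minor light chain of mice. Of the light chain constant values, lambda took 26.0% and 19.7% in the controls and 33.7% and 38.1% in the mutants. Of the light chain V values, it took 4.07% and 3.42% in the controls and 5.94% and 5.82% in the mutants. Both measures were higher in both mutants, by 13.1 and 2.14 percentage points, although the lambda share among constant segments was several times that among V segments in every library.

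**Figure D2:**
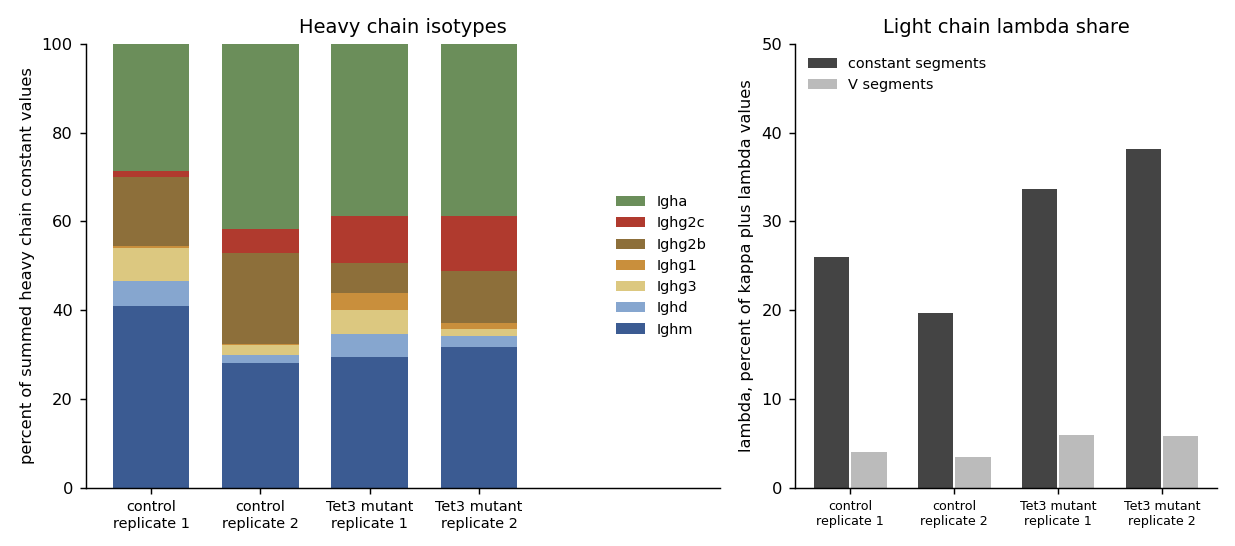
Left, percent of the summed heavy chain constant values taken by each isotype segment in each library, and right, lambda as a percent of kappa plus lambda values for constant and V segments. Ighg2c widens from 1.29% and 5.30% in the controls to 10.5% and 12.5% in the mutants, and both lambda shares are higher in both mutants.

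V segments and constant segments did not differ by the same factor. The 75 Igk V segments summed to 1274 and 819 normalized counts in the controls and 1772 and 2282 in the mutants, a ratio of the means of 1.94, against 1.16 for Igkc. The 84 Igh V segments summed to 1326 and 850 in the controls and 1478 and 1831 in the mutants, a ratio of 1.52, against 1.18 for the 7 heavy chain constant segments. The 3 Igl V segments summed to 54 and 29 in the controls and 112 and 141 in the mutants, a ratio of 3.05, against 2.18 for the 3 lambda constant segments. The V sums of all 3 loci were higher in both mutants, and the lowest sums were those of control replicate 2.

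Summed per kb of exon, Igh V segments exceeded the heavy chain constant segments by a factor of 3.38 to 4.92, and Igk V segments exceeded Igkc by a factor of 3.86 to 9.67. At Igl the order was opposite, since V values were 0.494 to 0.870 of the constant values per kb. The Igk factor was 6.04 and 3.86 in the controls and 6.96 and 9.67 in the mutants, so that it was higher in both mutants. These factors are values of the libraries, and no test was made on sums.

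**Figure D3:**
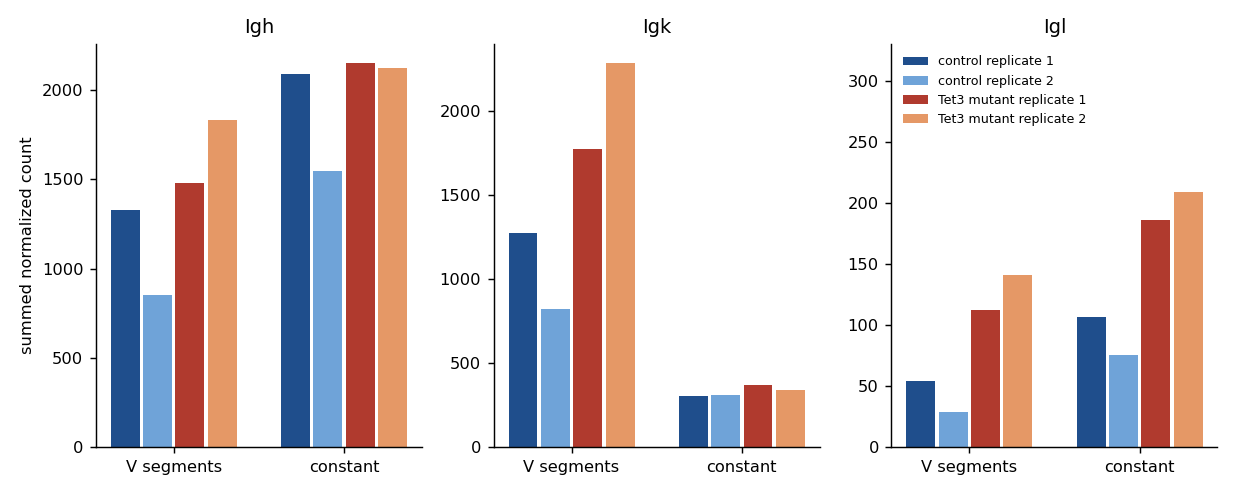
Summed normalized counts of the V segments and of the constant segments of each locus, with 1 bar per library and separate vertical scales. The V sums are higher in both mutants at all 3 loci, and the ratio of the group means of the constant sums is 1.18 at Igh, 1.16 at Igk and 2.18 at Igl.

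Most V segments that separated the groups were higher in the mutants. Of the 162 V segments, both mutants exceeded both controls in 56 and fell short of them in 8, which is 34.6% and 4.94%, and 98 overlapped. Over all 21462 rows the corresponding shares were 18.1% and 18.3%. At Igh 26 of 84 V segments were higher and 3 lower, at Igk 28 of 75 were higher and 5 lower, and at Igl 2 of 3 were higher and none was lower. The median log2 fold change of the 95 V segments with a mean of at least 10 was 1.02, and that of all genes tested was -0.01. The T cell receptor segments, which are assembled in T cells by the same kind of recombination, showed 5 of 23 higher and none lower. Without control replicate 2 these were 5 and 6, against 30.6% and 34.8% of all rows.

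The excess was smaller, but remained, without the library that stood apart. Without control replicate 2, 1 control faced 2 mutants. Of the 177 segments, 73 (41.2%) were then higher than the control in both mutants and 38 (21.5%) were lower. Over all rows these shares were 30.6% and 34.8%. Of the 162 V segments 67 were then higher and 33 lower, with 33 and 18 of 84 at Igh, 32 and 14 of 75 at Igk and 2 and 1 of 3 at Igl. Without control replicate 1, 100 of the 177 segments (56.5%) were higher and 16 (9.04%) lower, against 37.4% and 37.3% of all rows. Without Tet3 mutant replicate 1, 105 (59.3%) were higher and 18 (10.2%) lower, against 31.0% and 30.3% of all rows. Without Tet3 mutant replicate 2, 87 (49.2%) were higher and 31 (17.5%) lower, against 30.2% and 32.1% of all rows. The median log2 fold change of tested segments was 1.01 with all libraries and 0.41 without control replicate 2.

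Some V segments were at or near 0 in one group. Igkv6-13 was listed at 0 in both controls and at 35 and 79 normalized counts in the mutants, at least 19.0-fold higher when the control mean is set to the floor of 3 counts. Ighv1-54 had 3 and 0 in the controls and 58 and 89 in the mutants, a ratio of the sums of 49.0 with an exact 95% interval of 16.4 to 240 that covers counting error only. Igkv4-74 had 2 and 0 in the controls and 36 and 28 in the mutants, a ratio of 32.0 (8.50 to 270). In all 3 segments both mutants were far above both controls, and none passed the adjusted threshold in limma.

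Iglv3, the lambda segment known as Vλx, had 5 and 3 normalized counts in the controls and 46 and 59 in the mutants, a log2 fold change of 3.44 (SE 0.46; adjusted p 0.681, limma). Igkv12-98 had 1 and 2 in the controls and 17 and 23 in the mutants, a ratio of 13.3 (4.25 to 67.4). With the 3 segments above, these had the smallest p among tested V segments that were higher in both mutants. Iglv1, the lambda V segment with the highest mean, had 28 and 20 in the controls and 63 and 68 in the mutants. The log2 fold change of 1.43 (SE 0.33) for Iglv1 was close to that of Iglc1, the constant segment with which it is commonly joined. Iglv2, although 96.7% identical to Iglv1, had 21 and 6 in the controls and 3 and 14 in the mutants, and its groups overlapped.

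Close to Igkv6-13 on chromosome 6 lie Igkv6-14 and Igkv6-15, whose sequences are given above. Igkv6-14 had 7 and 0 normalized counts in the controls and 48 and 59 in the mutants. Igkv6-15 had 37 and 41 in the controls and 51 and 63 in the mutants. All 3 neighbours were higher in both mutants, but the controls were near 0 only for Igkv6-13 and Igkv6-14. Over the 8 segments of the Igkv6 family the sums were 109 and 118 in the controls and 224 and 375 in the mutants.

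Of the tested V segments, 4 were lower in both mutants. Igkv8-19 had 31 and 29 normalized counts in the controls and 4 in each mutant, a log2 fold change of -2.63 (SE 0.44; adjusted p 0.681, limma). Igkv4-90 had 20 and 23 in the controls and 2 and 4 in the mutants, a log2 fold change of -2.54 (SE 0.53; adjusted p 0.681, limma). In both segments the mutants were close to the floor of 3 counts. Ighv10-1, with 37 and 32 against 22 and 23, and Ighv1-69, with 27 and 35 against 24 and 19, were lower by smaller margins. Their log2 fold changes were -0.59 (SE 0.34) and -0.51 (SE 0.38).

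The V segments with the highest means were spread over both groups. At Igk, Igkv10-96 had the highest mean of all V segments, with 59 and 53 normalized counts in the controls and 106 and 135 in the mutants, a log2 fold change of 1.08 (SE 0.25; adjusted p 0.681, limma). Igkv14-111 had 34 and 13 in the controls and 84 and 113 in the mutants. Both had mutants above controls in every pairing. Igkv1-110, with 69 and 26 against 76 and 104, and Igkv12-46, with 65 and 7 against 75 and 113, also did not overlap, but their separation was small beside the distance between the 2 controls. Igkv1-117 overlapped, with 80 and 24 against 72 and 102.

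At Igh the abundant V segments did not separate the groups. Ighv1-81 had 103 and 37 normalized counts in the controls and 28 and 113 in the mutants. Ighv1-64 had 50 and 70 in the controls and 70 and 44 in the mutants. Ighv1-26 had 58 and 36 in the controls and 25 and 64 in the mutants. In each of these, 1 of the mutants was below both controls. Ighv1-9, with 20 and 48 against 37 and 82, overlapped too. Ighv1-82 had 31 and 25 in the controls but 7 and 122 in the mutants, so its mean of 64.5 in the mutants came almost wholly from replicate 2.

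**Figure D4:**
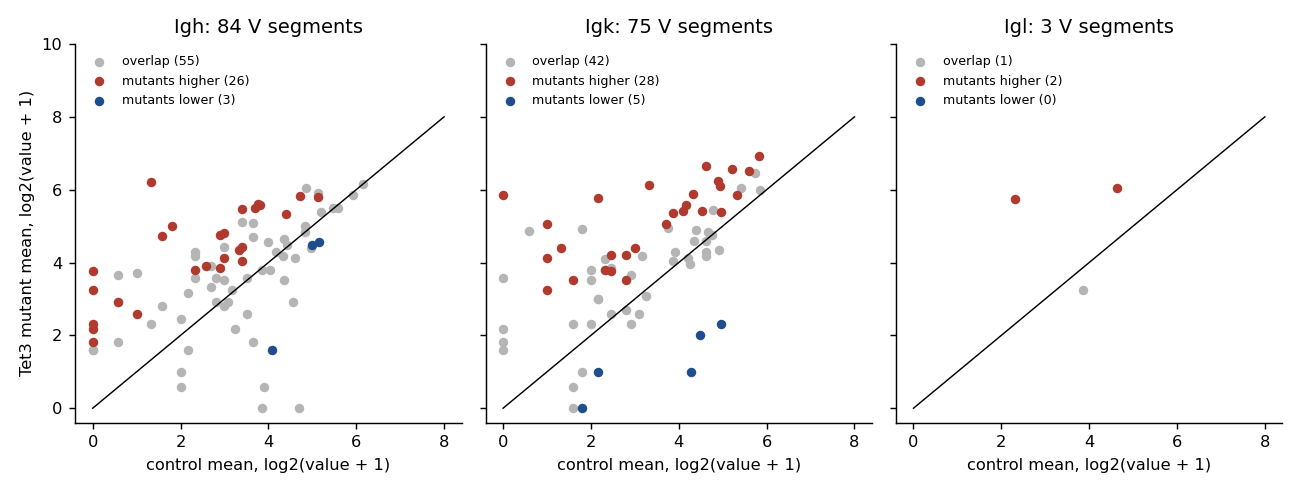
Mean of the 2 mutants against mean of the 2 controls for every V segment of each locus, as log2(value + 1), with the line of equal means. More segments lie above the line in red (both mutants higher: 26 at Igh, 28 at Igk, 2 at Igl) than below it in blue (both lower: 3, 5 and 0).

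Grouped into families by sequence, as their names give, the V segments formed 34 families, of which 18 had higher sums in both mutants and 1 had lower sums, or 18 and 5 without control replicate 2. For single rows the shares were 18.1% and 18.3% with all libraries, and 30.6% and 34.8% without control replicate 2. A family is a sum of segments and no like sums of other genes were made, so the family counts have no matching background. At Igh 5 of 13 families were higher, at Igk 11 of 18 and at Igl 2 of 3. The large Ighv1 family, with 43 segments, summed to 665 and 532 in the controls and 751 and 1050 in the mutants, and its share of the Igh V values was 50.2% and 62.6% in the controls and 50.8% and 57.3% in the mutants. Its share overlapped although its sum did not. The family that was lower consisted of Ighv4-1 alone, with 17 and 15 in the controls and 2 in each mutant.

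Values of single V segments varied widely between animals of the same group. Of the 95 V segments with a mean of at least 10, 24 differed more than 4-fold between the 2 controls and 18 between the 2 mutants, after 1 was added to each value. These are 25.3% and 18.9% of the V segments, compared with 5.33% and 1.84% of all 5426 rows in the same range of means. In 15 of the 95 a single library held at least 60% of the summed value. Ighv7-4 had 50 normalized counts in control replicate 1 and 0 elsewhere, Igkv3-9 had 56 in Tet3 mutant replicate 1 and at most 1 elsewhere, and Igkv8-18 had 59 in Tet3 mutant replicate 2 and at most 5 elsewhere. The library with at least 60% was control replicate 1 in 3 cases, the mutants in 5 and 7 cases and control replicate 2 in 0 cases. Some of the 15 were present in a further library, among them Igkv6-13 with 35 and 79 in the mutants. This count was not made over other rows.

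The breadth of V usage overlapped between the groups. Above the floor of 3 counts, 62 and 46 Igh V segments were present in the controls and 57 and 68 in the mutants, and 56 and 44 Igk V segments in the controls and 56 and 62 in the mutants. Control replicate 2, with the lowest sums, had the fewest at both loci. The effective number of segments (the reciprocal of the summed squared shares, which is high when usage is even) was 37.4 and 28.7 at Igh in the controls and 39.3 and 36.4 in the mutants. At Igk it was 33.9 and 31.3 in the controls and 33.5 and 36.2 in the mutants. The most abundant V segment took 4.74% to 8.24% of the Igh V values and 5.92% to 6.47% of the Igk V values, so no library was carried by a single V segment.

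Presence and absence were not even between the groups for a few segments. Of the 162 V segments, 65 were above 3 in all 4 libraries, 9 were above 3 in both mutants and neither control, and 1 was above 3 in both controls and neither mutant. Over all rows 0.969% and 0.983% showed these patterns, but those rows were not matched in abundance. Of the 21462 rows, 16659 had a mean of at least 10, against 95 of the 162 V segments, and low rows can show such patterns more readily. Counting strict zeros over the 177 segments, 6 were at 0 in both controls and above 0 in both mutants, and 1, Igkv8-34 (1 and 4 against 0 and 0), had the reverse pattern. Over all rows these patterns occurred 47 and 61 times, which is 0.219% and 0.284%. These shares are likewise not matched in abundance, so an excess cannot be read from them. The 6 segments were Igkv6-13 and, at Igh, Ighv5-12, Ighv14-1, Ighv1-34, Ighv8-5 and Ighv8-11. Ighv14-1 was at 15 and 10 in the mutants and Ighv8-11 at 3 and 14, while Ighv5-12, Ighv1-34 and Ighv8-5 did not exceed 5. The question of alleles raised above applies to all 6 and to Igkv8-34 as well. The table lists only rows that reach at least 4 in a library, so a row must be at 4 or more in the other group to show such a pattern.

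Along the chromosome, the higher segments were not gathered at one end of a locus. Igh V segments were ordered by distance from Ighj4 and split into 3 sets of 28. In the nearest, middle and farthest sets 10, 8 and 8 segments were higher in both mutants, and 1 was lower in each. In 3 sets of 25 Igk V segments ordered by distance from Igkj5, 10, 9 and 9 were higher and 3, 1 and 1 were lower. The ratio of the summed means was 1.80, 1.35 and 1.46 at Igh and 1.90, 2.25 and 1.81 at Igk. The farthest set held 43.2% to 48.9% of the Igk V values in every library. Igk V segments lie in both orientations, and the ratio was 1.81 for the 30 on the plus strand and 2.03 for the 45 on the minus strand. The Igk cluster is on the same chromosome as Tet3, with 12.6 Mb between the end of Igkc and the start of Tet3. The mutants carried floxed alleles of Tet3, and whether the groups had the same Igk alleles was not tested.

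**Figure D5:**
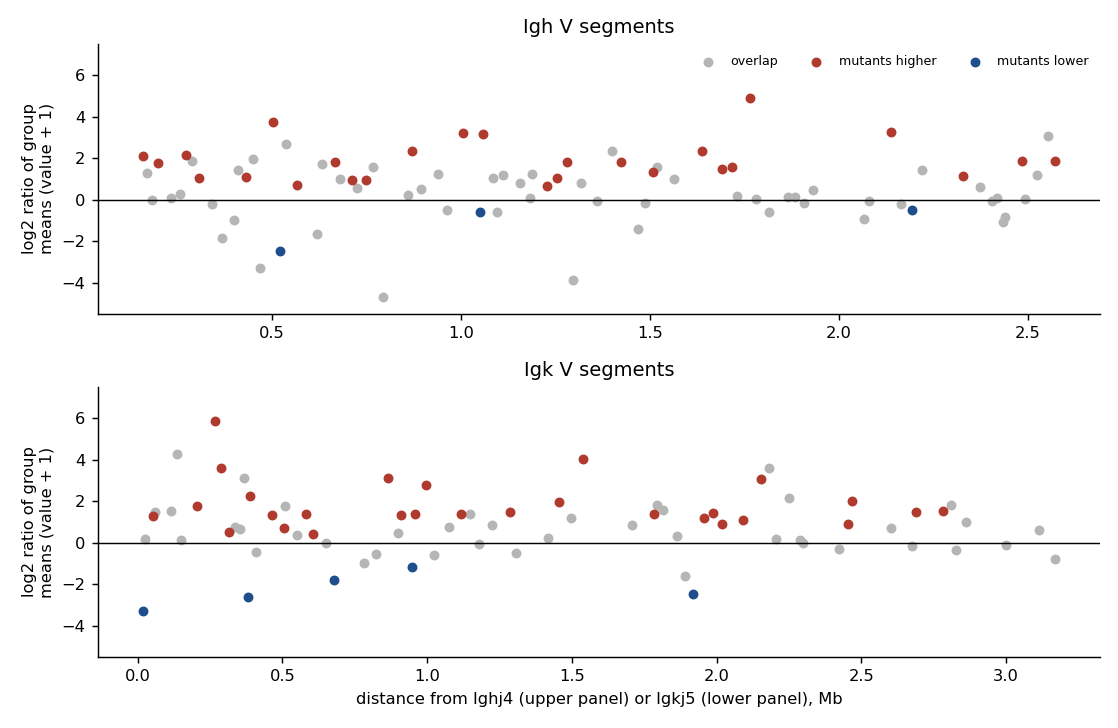
Log2 ratio of the group means (1 added to each mean) for each V segment against its distance in megabases (Mb) from Ighj4 at Igh and from Igkj5 at Igk. Segments with both mutants higher (red) occur along the whole length of both loci, and those with both lower (blue) are few.

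J segments gave almost no signal. Ighj1 had 2 and 0 normalized counts in the controls and 4 and 2 in the mutants, and Ighj4 had 3 and 2 in the controls and 4 and 2 in the mutants. Igkj5 had 3 and 1 in the controls and 5 and 1 in the mutants, and Iglj3 had 5 and 0 in the controls and 0 and 1 in the mutants. The J segments are 38 to 54 bases long, shorter than a read of 75 bases, so a read of an assembled chain also covers its V or constant part. Reads that overlapped several genes were excluded from the counts, so J values are limited by this rule as well as by depth. All 4 overlapped between groups and none reached a mean of 10, so none was tested.

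Genes of the cells that make antibodies were read from the same fit. Of 16 B cell markers, 3 were higher in both mutants and none lower, and none passed the adjusted threshold in limma. The 3 are 18.8% of the list, close to the 18.1% of all rows. Without control replicate 2 the counts were 3 higher and 4 lower, against 30.6% and 34.8% of all rows. Fcrla, a B cell protein that binds immunoglobulin inside the cell, had 22 and 19 in the controls and 47 and 45 in the mutants. Pou2af1, a coactivator of immunoglobulin transcription, had 62 and 21 in the controls and 69 and 64 in the mutants, and Cd37 had 226 and 165 in the controls and 323 and 266 in the mutants. The defining marker Ms4a1, which encodes CD20, had 112 and 17 in the controls and 101 and 54 in the mutants, and its groups overlapped. The median log2 fold change of the list was 0.67, and without control replicate 2 it was -0.24.

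The plasma cell list includes genes that other secretory cells also use, and its sum of 4431 to 4999 normalized counts overlapped between the groups. Jchain, which links IgA and IgM into polymers, had 492 and 421 in the controls and 693 and 736 in the mutants. The log2 fold change of Jchain was 0.65 (SE 0.13; adjusted p 0.681, limma), and it was higher in both mutants, as was its partner segment Igha. Mzb1, a chaperone of antibody assembly, had 3 in each control and 12 and 10 in the mutants. Sdc1, which encodes the plasma cell surface protein CD138 but is also made by epithelium, had 850 and 1597 in the controls and 465 and 799 in the mutants. Irf4, Tnfrsf13b and Txndc5 were also higher in both mutants, which with Jchain and Mzb1 makes 5 of 12 higher and 1 lower. Over all rows 18.1% were higher and 18.3% lower. Without control replicate 2 the counts were 6 and 2, against 30.6% and 34.8% of all rows. Tnfrsf17, which encodes the survival receptor BCMA, overlapped at 12 and 11 against 5 and 13.

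Of the genes for immunoglobulin assembly and switching, Dntt, Vpreb3 and Ung were in the table, and the other 6 on the list are not analysed here. Dntt, the polymerase that adds bases at the joints, had 4 and 0 in the controls and 1 and 4 in the mutants. Vpreb3, a relative of the surrogate light chain, had 30 and 29 against 37 and 33, and Ung, which removes uracil during class switching, had 14 and 16 against 16 and 25. Among 9 receptors and transporters of immunoglobulin, 6 were higher in both mutants and none lower, against 18.1% and 18.3% of all rows. Without control replicate 2 these were 6 and 1, against 30.6% and 34.8% of all rows. The genes higher in both mutants included the IgG receptor Fcgr3, with 337 and 283 in the controls and 460 and 536 in the mutants. Fcer1g, the signalling chain it uses, was another, with 144 and 154 against 193 and 286. Pigr, which carries polymeric IgA across epithelium, overlapped at 332 and 58 against 159 and 193.

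Markers of other cells differed between the groups in different directions, and none passed the adjusted threshold in limma. The counts below, of genes higher or lower without overlap, stand against 18.1% and 18.3% of all rows. Of 10 T cell and natural killer cell markers, 4 were higher and none lower, and all 10 had a log2 fold change above 0. Their median was 1.13, beside 1.01 for the tested segments and -0.01 for all genes tested, and control replicate 2 was the lowest library in both. Summed over 10 macrophage markers, the controls had 6292 and 5542 and the mutants 7004 and 8107, with 7 genes higher in both mutants and none lower. Of 6 neutrophil markers, 5 were higher and none lower, and of 8 smooth muscle markers, 5 were higher and none lower. Of 6 markers of alveolar type 2 cells, 5 were lower and none higher, with a median log2 fold change of -0.57. Erythroid markers summed to 314 and 4 in the controls and to 17 and 29 in the mutants, and endothelial markers to 9170 and 7844 in the controls and 9478 and 8560 in the mutants, with overlap in all 5 endothelial genes. The part of these cells in the segment values was not tested.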

How the data were processed

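RNA of smooth muscle cells sorted from lungs was sequenced from 2 control and 2 Tet3 mutant mice. By the authors' methods and processing notes, RNA was depleted of ribosomal RNA and made into stranded libraries, single-end reads of 75 bases were trimmed with Trimmomatic 0.36, aligned with STAR 2.6.0c to GRCm38 (mm10) and assigned to exons by featureCounts of Subread 1.6.0, and reads mapping to several places or genes were excluded. Whether counting used strand is not given in the sources used here. The deposited values are a score: counts per gene that the authors scaled with DESeq2 and rounded to whole numbers, so they are not raw counts. The scaling factors, estimated from missing low values, were 0.961 and 1.05 in the controls and 1.09 and 0.901 in the mutants. Totals divided by these factors correspond to 7.29 M and 6.81 M assigned reads for the controls, and for the mutants to 6.32 M and 7.56 M. Where a factor is below 1, read numbers share a rounded value, so whole reads were not recovered and no count test was run.

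Of 21462 rows, 16659 with a mean of at least 10 were tested with limma 3.58.1 in R 4.3.3 (lmFit, eBayes with trend) on log2(value + 1), with Benjamini-Hochberg adjustment over all of them and a threshold of 0.05. On this scale the fold changes of low genes are understated. The script was tested on simulated data. An exact permutation test of 2 against 2 values cannot go below 0.333, so none was used. Groups do not overlap where both mutants are above, or both below, both controls. Sums, shares and families have no test. The floor is 3 counts, and floors and intervals cover counting error only, since the reads carry no molecular identifiers. Sequences and windows came from GENCODE M21 transcripts, identities from global alignment with Biopython 1.88, and other summaries from Python 3.11.15. Promoters of the segments are not analysed here.

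The segments and gene lists were chosen with earlier results of these data known. Named were all C and J segments, the 5 V segments with the largest mean per locus and up to 5 per direction with the smallest limma p among tested V segments without overlap, of which only 4 were lower. Igkv6-14, Igkv6-15, Igkv8-34, Ighv4-1 and the Igh V segments at 0 or high in a single library were chosen after their values were seen, as were the pseudogenes and the markers Acta2 and Myh11. Alternatives were a pseudocount of 0.5 or 8, a minimum mean of 1 or 50, TMM factors, equal library totals, no trend, the replicate number as a block and each library left out. Added after seeing the data were sums of V segments only and each segment as a percent of the V values of its locus.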

Additional observations from a re-analysis of the deposited data

Results flagged for a closer look

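The 7 immunoglobulin V pseudogenes in the table, which are outside the segments described above because their biotype marks them as unable to encode a chain, had values above 0 only in the mutants. All 7 lie at Igh and were at 0 in both controls and above 0 in both Tet3 mutants, where they summed to 42 and 56 normalized counts. The largest values were those of Ighv1-14, at 24 and 13, and Ighv3-2, at 3 and 19, while Ighv5-1, Ighv4-2, Ighv1-21, Ighv1-25 and Ighv1-33 were at 1 to 7. Of all 21462 rows, 47 (0.219%) had this pattern, these 7 among them. The GENCODE M21 annotation lists 158 such pseudogenes, and the table lists only rows that reach at least 4 in a library. All 7 are therefore in the table only through their values in the mutants. That all 7 had the pattern cannot be read as an excess over the other rows. The pseudogenes were not tested singly, since each had a mean below 10, and the cause of the pattern was not tested. The same pattern held for 5 Igh V segments, and Ighg2c was higher and Ighg2b lower in both mutants. Whether the controls and mutants carried the same Igh alleles was not tested, so these values cannot be read as a difference in RNA alone.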

How the results depend on the processing

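No segment passed the adjusted threshold of limma under any of the 12 alternative settings, and the smallest adjusted p ranged from 0.153 with the replicate block to 0.998 without Tet3 mutant replicate 2. Without adjustment, 28 higher and 3 lower segments became 6 and 1 of 18 at a mean of at least 50, where fewer segments were tested, and 14 to 40 and 1 to 8 when each library was left out. The lowest count higher, 14, was without Tet3 mutant replicate 2 and the highest, 40, without control replicate 1. The median log2 fold change of tested segments, 1.01, was 0.60 with a pseudocount of 8, 0.47 at a mean of at least 50, and 0.41 to 1.14 with a library left out. That of the B cell list ranged from -0.24 to 1.44 and that of the plasma cell list, 0.01, from 0.046 to 0.11 with a library left out, and the latter was 0.065 at a mean of at least 50. The log2 ratio of the sum of all segments, 0.57, was 0.28 for constant segments only and 0.33 to 0.84 with a library left out, that at Igh (0.38) 0.15 to 0.66, that at Igk (0.82) 0.22 for Igkc alone and that at Igl (1.27) 0.98 to 1.64. The share differences of Igha and Ighm ranged from -2.99 to 10.1 and from -10.4 to 2.57 percentage points. Of 32 named segments tested, as a percent of the V values of the locus Ighv1-9 was at -0.035, Igkv1-117 at -0.11 and Iglv1 at -0.21 on the log2 scale, opposite to their fold changes, because the sum of the locus was itself higher. With a library left out the sign turned for Ighg3 (-1.30 to 0.79), Ighd (-0.59 to 1.38), Ighm (-0.39 to 0.59), Ighv1-26 (-0.85 to 0.48), Ighv1-64 (-0.42 to 0.24), Ighv1-81 (-1.12 to 0.86), Ighv1-82 (-1.85 to 2.09) and Iglv2 (-1.63 to 0.27), and the cause was not tested. Of the 30 or 31 named segments that could be fitted, 13 moved by more than 1.5-fold without control replicate 2, 12 without control replicate 1 and 6 without each of the mutant libraries. The lone library left in a group is then assumed to vary like the others. The labels do not say whether libraries with the same replicate number were handled together. With only 2 pairs, the correlation of their deviations (0.134) cannot settle it. The replicate block gave 31 segments higher and 3 lower without adjustment. It took the smallest adjusted p of limma from 0.681 to 0.153 and changed no call. TMM factors and equal library totals kept the direction of every named segment and sum, and shares do not depend on them by construction. edgeR and DESeq2 were not run, because whole reads were not recovered. Segments near the floor of 3 counts are limited by depth, and the J segments also by the exclusion of reads that overlap several genes.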

Other observations

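T cell receptor segments, the counterparts of the immunoglobulin segments in T cells, were low in all libraries. The 12 V segments summed to 56 and 17 normalized counts in the controls and 72 and 63 in the Tet3 mutants. The 7 constant segments summed to 172 and 24 in the controls and 172 and 136 in the mutants, so control replicate 2 was the lowest library and the others overlapped. Of the 23 segments, 4 J segments included, none was at 0 in both libraries of 1 group and above 0 in both of the other.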
